A study of Mus musculus with 4 samples.

Results

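Bone marrow cells that carried B220 and lacked CD43 were compared between Btg1-/-;Btg2-/- mice (dKO) and wild-type (WT) mice, with 1 array for each genotype. The comparison covered every probe of the deposited signal table whose detection score was above 0.99 on at least 1 of the 2 arrays, which kept 10784 of 25697 probes and 7944 of 17916 genes. Of these genes, 7253 were detected on both arrays, 297 on the dKO array only and 394 on the WT array only. With 1 array a side there was no replicate and no test, so genes were counted by size, with 2-fold as the threshold.

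All mice were of strain C57BL6/J per the labels, both groups came from marrow flushed from tibia and femur, and the cells were separated by flow cytometry. The labels equate CD43- cells with Hardy fractions DEF, the small pre-B, immature B and mature recirculating B cells. The sorted B220+ CD43+ cells of the same genotypes (fractions ABC) fill the other 2 of the 4 arrays and share no array with this comparison. The labels do not give the age, the sex or the number of animals behind an array, nor which parts of the 2 genes were deleted, and they name no promoter or cell type that restricts the deletion, so effects inside B cells and effects in other cells cannot be told apart.

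BTG1 and BTG2 are related antiproliferative proteins. They bridge RNA-binding factors to the CCR4-NOT complex, which shortens the poly(A) tails of mRNAs, and they also bind the arginine methyltransferase PRMT1. In B-cell development, large pre-B cells divide under signals from the pre-B-cell receptor and interleukin 7 and then leave the cell cycle to become small pre-B cells that rearrange their light chain genes, so the CD43- fraction is normally made mostly of resting cells with a cycling minority.

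The labelled cell type was checked against markers. The B-lineage markers reported here were detected in both genotypes. Cd79b gave signals of 28574 in WT and 27187 in dKO, Vpreb3 22002 and 25851, Cd22 2763 and 3702, and Ms4a1 754.0 and 727.5. Spn, which encodes CD43, was not detected on either (148.6 and 157.0). In the CD43+ cells it gave 164.9 and 179.6, which are dim signals too, so its probe was a weak check of the sort. Erythroid and neutrophil markers were also present: Hba-a1, an alpha-globin gene, gave 21137 in WT and 20111 in dKO, and S100a8, a neutrophil calcium-binding protein gene, gave 4863 and 5370. The mean signal was 555.2 on the WT array and 648.1 on the dKO array, and 40.15% and 39.53% of probes were detected. Xist, transcribed from the inactive X chromosome, gave 180.6 in WT and 246.0 in dKO (0.78, 1.81 on its other probe and 1.99 in the RMA table). Of the Y-linked genes detected, Eif2s3y gave 1553 and 1118 (-0.88), Ddx3y 1094 and 1330 (-0.02) and Kdm5d 235.9 and 251.7 (-0.15).

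Btg1 itself gave a signal of 19425 in WT and 8115 in dKO CD43- cells, 2.73-fold lower (log2 difference -1.45, bead SE 0.068, and -1.87 on its other probe). The bead SE covers the spread among beads of 1 array, not the spread among mice or among RNA samples. Btg2 was detected on neither array, with signals of 142.3 and 138.1. The position of the Btg1 probes relative to the deleted part is unknown, and the genotype is therefore not checked by the signal that remained. Among 16 measured genes of the BTG/TOB family and the CCR4-NOT complex, Btg1 was the 1 member lower by 2-fold or more and no other member reached 2-fold in either direction. Their median was -0.07, and Cnot6l, a catalytic deadenylase subunit, was at 0.53 (506.9 in WT and 835.5 in dKO).

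Across the fraction, 287 of 7944 genes (3.61%) were higher by 2-fold or more in dKO and 204 (2.57%) lower by 2-fold or more, and 25 and 4 were at least 4-fold so. With genes detected on 1 array counted at their bound, 184 (2.32%) and 99 (1.25%) remained past 2-fold. The median difference of all genes was 0.01, the middle 50% of the genes lay between -0.26 and 0.27, and 50.6% of genes were above 0. At the level of probes, 370 of 10784 (3.43%) were higher by 2-fold or more and 308 (2.86%) lower. Of the higher genes 273, and of the lower genes 199, kept their sign in the log2 values that the authors made with RMA. Scaling the arrays on the median of all probes moved the median of all genes to 0.25 and the counts to 472 higher and 93 lower, against 235 and 235 when the median was taken over probes detected on all 4 arrays. Without background correction 50 and 34 genes passed.

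The genes were then described by pathway, over 75 lists of related genes. A list was called shifted where at least 5 members were measured, the median reached 0.3 in size and at least 75% of the members shared its sign. Counts of members past 2-fold include genes detected on 1 array at their normalized values, and such genes are named with their bound. By this rule 16 of the 75 lists were shifted, 13 higher and 3 lower in dKO. The higher lists fell into the cell division machinery and markers of cells other than B cells, with the Notch and Wnt pathway beside them. The lower lists were immediate-early genes, the GIMAP family and neutrophil markers. Lists of S phase, mitosis, cell-cycle control and DNA repair together held 45 of the 287 higher genes (15.7%) and 4 of the 204 lower genes (1.96%), against 295 of all 7944 genes (3.71%). Of these 45, 27 were replication-dependent histone genes, which made up 44 of the 295, so the pooled share rests mostly on that 1 list.

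**Figure D1:**
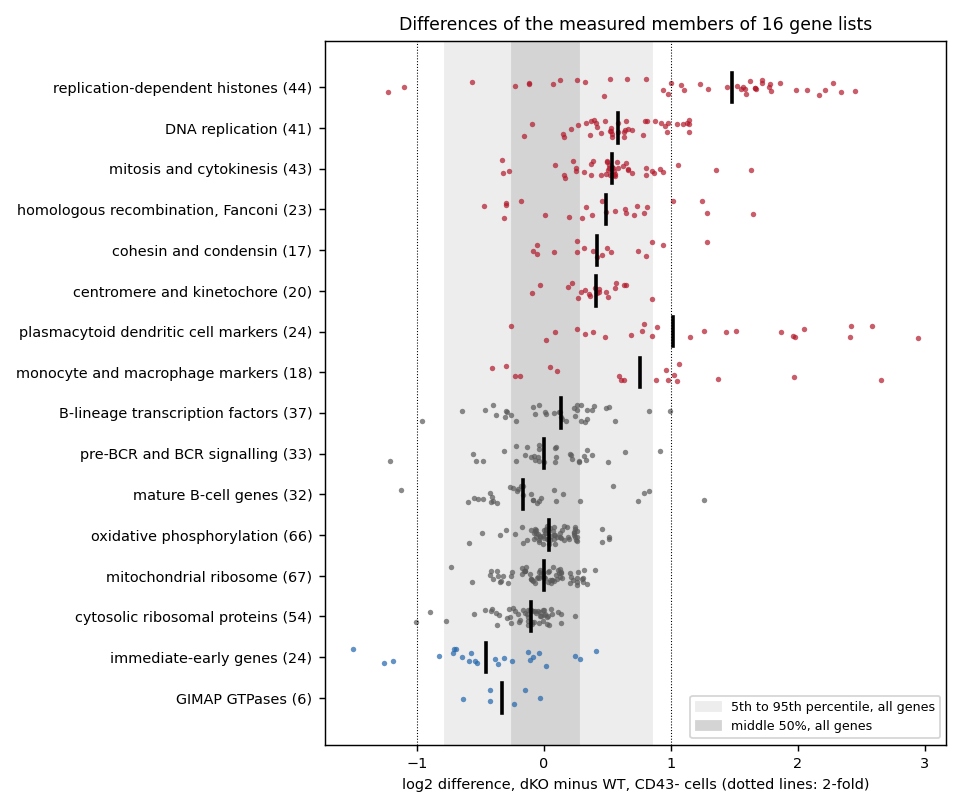
Log2 differences (dKO minus WT, CD43- cells) of the measured members of 16 gene lists, 1 point per gene, with the number of members in parentheses and a black bar at the median. Red lists were called higher, blue lists lower and grey lists not shifted, and the shaded bands give the middle 50% and the 5th to 95th percentile of all 7944 genes; histones reach a median of 1.48, while oxidative phosphorylation and ribosomal protein genes stay near 0.

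Genes of DNA replication moved together. Of 41 measured members, 39 were above 0 against 50.6% of all genes, and 6 were higher by 2-fold or more against 3.61% of all genes, with 0 lower by 2-fold or more. The median was 0.59. Cdc6, which loads the MCM helicase onto origins, gave 450.7 in WT and 1061 in dKO, 2.21-fold higher (1.14, bead SE 0.0798; 1.05 on its other probe, 0.42 in the RMA table). Pole, the catalytic subunit of the leading-strand polymerase, gave 318.2 and 677.3 (2.20-fold). Mcm2, a helicase subunit, gave 772.7 and 1935 (2.18-fold). Each of these was brighter on the dKO array by more than the difference in mean signal between the arrays. Dnmt1, which copies DNA methylation onto new strands, gave 885.7 and 2257 (2.20-fold). Mcm10, which helps to activate the helicase, gave 801.5 and 1924 (2.07-fold), and the origin recognition gene Orc1 was detected in dKO only, at least 1.41-fold higher. Just under the threshold lay Uhrf1 (0.98), which links DNA methylation to replication, Timeless (0.97), a replication fork protein, and Cdc45 (0.95), a part of the active helicase. The enzymes of nucleotide synthesis had a median of 0.34 with 18 of 25 above 0, short of the 75% needed for a call, and none of them reached 2-fold; Dck, deoxycytidine kinase, was at 0.76 and Tyms, thymidylate synthase, at 0.68.

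In CD43+ cells the same replication genes had a median of 0.01, with 22 of 41 above 0 and 0 higher by 2-fold or more. Their median level on the normalized log2 scale was 10.25 in WT CD43+, 10.09 in dKO CD43+, 9.53 in WT CD43- and 10.18 in dKO CD43- cells. The dKO CD43- array thus lay at the level of the CD43+ arrays, and the WT CD43- array was the low one of the 4.

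Promoters of the replication genes were searched for letters of E2F sites, because E2F factors are known to drive genes of the G1/S transition. RefSeq windows of 300 bases (250 before to 50 after the first listed start, build GRCm38.p6) were matched by symbol for 34 of the 41 members and 6208 of all measured genes. The letters TTTCGCGC, TTTGGCGC or TTTCCCGC stood on either strand in 11 of the 34 (32.4%), against 3.93% of all measured genes and 1.91% of 27025 RefSeq promoters. The 2 members with the largest difference among those that held a match are shown, with the match in capitals (Cdc6, chr11:98907901-98908200, plus strand; Orc1, chr4:108579204-108579503, plus strand).
Cdc6: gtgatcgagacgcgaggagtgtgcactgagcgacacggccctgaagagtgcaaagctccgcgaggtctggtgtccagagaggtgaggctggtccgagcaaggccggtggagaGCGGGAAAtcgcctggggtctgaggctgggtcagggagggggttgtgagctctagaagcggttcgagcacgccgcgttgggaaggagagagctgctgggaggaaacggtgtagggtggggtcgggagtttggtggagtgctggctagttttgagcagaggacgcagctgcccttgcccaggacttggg
Orc1: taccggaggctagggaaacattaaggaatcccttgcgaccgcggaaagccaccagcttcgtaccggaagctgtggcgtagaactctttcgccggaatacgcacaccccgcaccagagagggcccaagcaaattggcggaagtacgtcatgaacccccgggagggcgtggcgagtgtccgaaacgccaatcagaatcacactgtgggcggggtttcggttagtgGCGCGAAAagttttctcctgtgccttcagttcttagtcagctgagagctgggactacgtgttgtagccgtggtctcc
Members with such a match had a median difference of 0.52 and the 23 without one a median of 0.59, so the presence of these letters did not go with a larger difference. A match is a description of the sequence and not of binding.

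Replication-dependent histone genes held the largest shift of all 75 lists. Their mRNAs are made during S phase to package new DNA, and they normally end in a stem-loop in place of a poly(A) tail, whereas the labelling kit primes on poly(A). Of 44 measured members 38 were above 0, 27 were higher by 2-fold or more against 3.61% of all genes, and 2 were lower by 2-fold or more against 2.57%. The median was 1.48. In CD43+ cells the median was 0.40, with 38 of 44 above 0 and 4 higher by 2-fold or more. The median level of the histone genes was 9.037 in WT CD43+, 9.708 in dKO CD43+, 9.465 in WT CD43- and 11.15 in dKO CD43- cells. Unlike for replication, the dKO CD43- array was thus the high one of the 4.

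The 5 histone classes differed from each other. All 10 measured H4 genes were higher by 2-fold or more, with differences from 1.58 to 2.45 and a median of 2.08. H4c3 gave 364.3 in WT and 1847 in dKO, 5.47-fold higher (bead SE 0.0963). H4c12 gave 561.6 and 2989 (5.05-fold). H4c9 gave 793.2 and 3953 (4.49-fold). These genes encode 1 and the same protein, and their transcripts are so alike that 1 probe may read several of them. In CD43+ cells all 10 H4 genes were above 0 as well, from 0.47 to 1.32, and 2 of the 10 were higher by 2-fold or more.

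Of 12 H2B genes 8 were higher by 2-fold or more (median 1.48), among them H2bc7 (4660 in WT and 14672 in dKO) and H2bc11 (3021 and 11745). Of 9 H3 genes all were above 0 and 5 higher by 2-fold or more (median 1.08), with H3c1 at 1.72. The H2A class moved less, with 2 of 10 higher by 2-fold or more, 1 lower by 2-fold or more and a median of 0.40. None of the 7 histone genes with a WT signal above 5000 was higher by 2-fold or more, against 27 of the other 37. The WT signal is itself 1 side of the difference and the cut was set after the values were seen. No conclusion on bright histones is drawn from this split. Among the 7, H2ac23 gave 36187 in WT and 32237 in dKO and H3c13 gave 8898 and 11979. Of the linker histones, H1f5 (230.8 and 706.4) and H1f1 (265.7 and 786.6) were 4.19-fold and 3.62-fold higher. H1f2, also among the 7, went the other way, from 6699 to 3996 (2.15-fold lower), as did H2ac18 (953.7 and 567.3, 2.34-fold lower). Genes of variant histones and histone chaperones, which are expressed outside S phase too, had a median of 0.27 over 18 genes, with 15 above 0 and none at 2-fold.

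**Figure D2:**
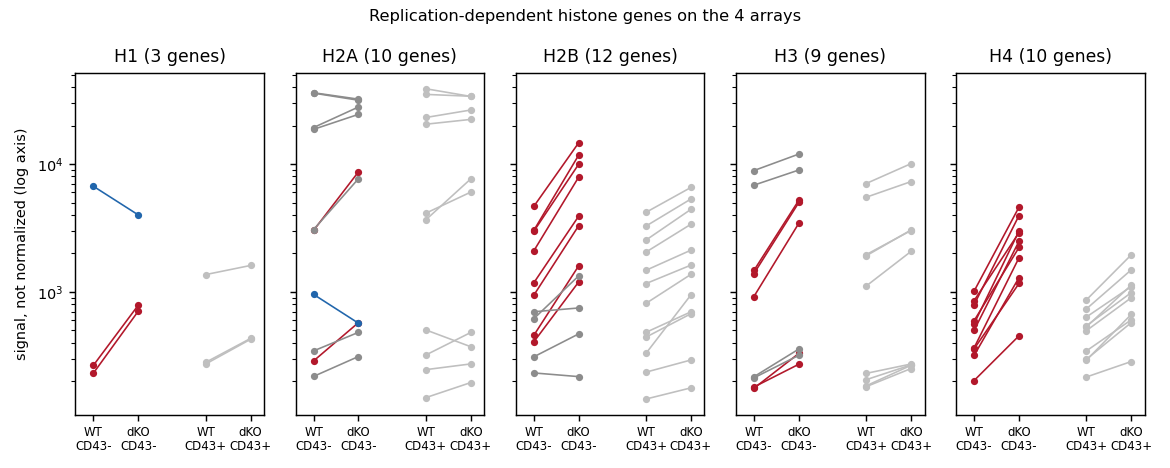
Signals of the 44 measured replication-dependent histone genes on the 4 arrays (log axis, not normalized), by class, with 1 line per gene joining WT to dKO within a fraction. In CD43- cells red lines are higher by 2-fold or more and blue lines lower by 2-fold or more after normalization, and grey CD43- lines are within 2-fold; every H4 line is red, and the CD43+ lines, drawn in light grey, are flatter.

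Most of the histone genes lie in the large cluster on chromosome 13, where 25 of 36 measured ones were higher by 2-fold or more. Of the 8 on chromosome 3, 2 were (H4c14 at 2.22 and H2bc18 at 1.55). Chromosome 13 as a whole had 34 of 284 genes higher by 2-fold or more. Outside the histone genes it had 9 of 248 (3.63%), close to the 3.61% of all genes.

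Histone promoters are known for TATA and CCAAT boxes. The letters TATAAA stood on either strand in 23 of 39 matched histone promoters (59.0%), against 7.23% of all measured genes, and CCAAT in 32 of 39 (82.1%), against 40.2%. Of 9 matched H4 promoters, 6 held TATAAA and 2 held CCAAT. The 2 H4 genes with the largest difference among those with TATAAA are shown, with the match in capitals (H4c12, chr13:21750504-21750803, minus strand; H4c17, chr13:21811496-21811795, plus strand).
H4c12: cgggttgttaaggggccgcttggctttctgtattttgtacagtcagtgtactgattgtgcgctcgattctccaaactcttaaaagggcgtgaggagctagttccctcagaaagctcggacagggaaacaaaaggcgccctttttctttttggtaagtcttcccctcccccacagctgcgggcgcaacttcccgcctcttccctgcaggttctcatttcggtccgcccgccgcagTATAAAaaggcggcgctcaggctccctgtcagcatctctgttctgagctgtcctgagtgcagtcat
H4c17: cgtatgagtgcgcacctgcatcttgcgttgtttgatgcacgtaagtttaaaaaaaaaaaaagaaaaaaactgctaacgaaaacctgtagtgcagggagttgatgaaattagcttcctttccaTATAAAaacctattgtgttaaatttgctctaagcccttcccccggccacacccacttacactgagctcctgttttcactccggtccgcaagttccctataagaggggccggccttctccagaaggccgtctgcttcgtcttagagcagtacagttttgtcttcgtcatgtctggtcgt
The match of H4c12 begins at -16 and that of H4c17 at -128 from the listed start. Letters were counted anywhere in the window, so a match is not shown to be a TATA box. Histone genes with TATAAA had a median difference of 1.52 and the 16 without it one of 1.5. The 32 with CCAAT had a median of 1.16 and the 7 without it one of 1.99; those 7 are all H4 genes.

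Mitosis and cytokinesis genes showed a smaller shift spread over nearly all members. Of 43 measured genes 40 were above 0, 3 were higher by 2-fold or more against 3.61% of all genes and 0 lower by 2-fold or more against 2.57%, with a median of 0.54. Ccna2, encoding cyclin A2, was detected in dKO only (160.3 in WT and 256.0 in dKO, at least 2.49-fold higher). Espl1, the separase that cuts cohesin at anaphase, gave 248.0 and 533.5 (2.56-fold higher), and Anln, the cleavage furrow protein anillin, gave 502.8 and 1136 (2.08-fold higher). Stmn1, a microtubule regulator, was at 0.93 with signals of 1518 and 3520.

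The structural genes of chromosomes followed at a similar size. Centromere and kinetochore genes were above 0 for 18 of 20 members, with none at 2-fold and a median of 0.41; Ska3, a kinetochore subunit, was highest at 0.85 (234.9 in WT and 379.8 in dKO). Cohesin and condensin genes were above 0 for 14 of 17, with a median of 0.42. Ncapg2, a condensin II subunit, was the 1 member higher by 2-fold or more (253.9 and 531.7, 2.44-fold, and 0.56 on its other probe).

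In CD43+ cells the mitosis genes had a median of -0.07 (18 of 44 above 0) and the centromere genes one of -0.06 (10 of 21 above 0). The median level of the mitosis genes was 9.45 in WT CD43+, 9.50 in dKO CD43+, 9.15 in WT CD43- and 9.67 in dKO CD43- cells. As for replication, the WT CD43- array was the lowest of the 4, but here the dKO CD43- array was the highest. The centromere genes stood at 8.84, 8.78, 8.73 and 9.15 in the same order, with the dKO CD43- array again the highest.

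The CHR element, with the letters TTTGAA, is a known mark of promoters that peak in G2 and M phase. It stood on either strand in 26 of 35 matched promoters of the mitosis list (74.3%), against 12.4% of all measured genes and 18.1% of RefSeq promoters. The 2 mitosis genes with the largest difference among those that held it are shown, with TTTGAA and any CCAAT on either strand in capitals (Espl1, chr15:102296043-102296342, plus strand; Anln, chr9:22389157-22389456, minus strand).
Espl1: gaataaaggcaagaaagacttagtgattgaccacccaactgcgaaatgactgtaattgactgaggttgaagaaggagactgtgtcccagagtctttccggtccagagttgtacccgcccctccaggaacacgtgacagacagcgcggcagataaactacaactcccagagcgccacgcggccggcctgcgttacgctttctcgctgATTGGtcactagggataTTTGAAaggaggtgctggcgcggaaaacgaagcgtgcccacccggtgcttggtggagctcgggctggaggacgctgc
Anln: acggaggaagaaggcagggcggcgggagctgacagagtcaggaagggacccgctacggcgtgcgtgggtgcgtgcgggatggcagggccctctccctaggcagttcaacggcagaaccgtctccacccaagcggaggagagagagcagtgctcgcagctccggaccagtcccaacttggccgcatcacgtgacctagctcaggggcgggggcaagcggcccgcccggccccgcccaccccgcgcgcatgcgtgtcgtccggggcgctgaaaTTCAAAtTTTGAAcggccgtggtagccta
Mitosis genes with TTTGAA had a median difference of 0.54 and the 9 without it 0.51. The E2F letters stood in 1 of the 35 mitosis promoters (2.86%), and TTTGAA in 7 of the 34 replication promoters (20.6%). Both lists held CCAAT more often than the 40.2% of all measured genes, in 25 of 35 mitosis promoters (71.4%) and 21 of 34 replication promoters (61.8%).

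Regulators of the cycle were mixed. Cyclins and cyclin-dependent kinases were above 0 for 16 of 19 members and higher by 2-fold or more for 4, against 3.61% of all genes. Their median was 0.36, but 0.25 over the 16 members detected on both arrays, which is short of the 0.3 needed for a call. Ccnd1, encoding cyclin D1, gave 182.5 in WT and 521.7 in dKO, 5.31-fold higher (2.41, and 1.94 and 2.06 on its other probes). Its signal was 5750 and 9294 in CD43+ cells, a pattern across the 4 arrays like that of the dendritic cell markers below. Ccne2, encoding cyclin E2 of the G1/S transition, gave 246.0 and 439.3 (2.01-fold higher). The other members past 2-fold were Ccna2, described above, and Cdk12, a kinase of transcription detected in dKO only and at least 1.11-fold higher. The list of CDK inhibitors and RB-E2F genes was above 0 for 15 of 18 members with none at 2-fold (median 0.33): Mybl2, an activator of G2/M genes, was at 0.87, the pocket protein gene Rbl1 at 0.83, the CDK inhibitor gene Cdkn1a at 0.80 and E2f1 at 0.74. Inducers and brakes of the cycle stood above 0 side by side.

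DNA repair split by pathway. Homologous recombination and Fanconi genes, which act on broken replication forks, were above 0 for 18 of 23 members. Of these genes 4 were higher by 2-fold or more, against 3.61% of all genes (median 0.49, and -0.00 in CD43+ cells). Brip1, a helicase of this pathway, gave 286.7 in WT and 617.1 in dKO (2.36-fold higher), and Fancd2 gave 211.8 and 351.0 (2.02-fold higher). Chek1, the checkpoint kinase, was detected in dKO only, at least 1.76-fold higher. So was Brca1, a mediator of strand exchange, with 159.0 and 224.1 (at least 1.87-fold higher). Mismatch and base excision repair genes had a median of 0.05 with 11 of 19 above 0. Genes for V(D)J recombination and for joining of DNA ends were above 0 for 6 of 12, and 2 were lower by 2-fold or more: Polm, a polymerase of light chain gene joining, gave 781.9 and 424.2 (2.76-fold lower, and -1.45 on its other probe), and Dclre1c, encoding the Artemis nuclease, gave 220.1 and 186.7 (-1.0, but -0.83 and 0.16 on its other probes).

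Markers of plasmacytoid dendritic cells, type I interferon producing cells that carry B220, were the second largest shift. Of 24 measured markers 23 were above 0 and 12 higher by 2-fold or more against 3.61% of all genes, with a median of 1.02 (0.84 with bounds). Siglech gave 228.4 in WT and 1176 in dKO, 7.71-fold higher (1.76 on its other probe). P2ry14, a receptor for UDP-sugars, gave 189.0 and 623.9 (5.99-fold). Cox6a2, a subunit of cytochrome oxidase, gave 1205 and 3993 (2.85-fold). In the CD43+ cells the signals of Siglech were 11233 and 14011, those of P2ry14 5765 and 9179, and those of Cox6a2 15496 and 24509, so dKO CD43- cells lay above WT CD43- cells and well below both CD43+ arrays.

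The kallikrein genes among these markers behaved alike: Klk1 gave 256.0 and 1049 (5.34-fold higher), Klk1b4 206.4 and 560.7 (4.13-fold), Klk1b27 182.1 and 414.1 (3.93-fold) and Klk1b5, which is not on the list, 203.5 and 571.2 (4.38-fold). They are close paralogs in 1 cluster on chromosome 7, and their probes may read several of them. Pacsin1 (1.44) and Ptprs (1.26) were higher too, but stood at -0.02 and -0.15 in the authors' RMA table. Ccr9, a homing receptor of these cells, was not detected. In CD43+ cells the list had a median of 0.20 over 27 genes, with 17 above 0 and 0 at least 2-fold in either direction. The median level of the 24 markers was 7.05 in WT CD43- and 8.70 in dKO CD43- cells, against 11.89 on both CD43+ arrays. In bulk RNA, more cells of a type and more RNA per cell cannot be told apart.

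**Figure D3:**
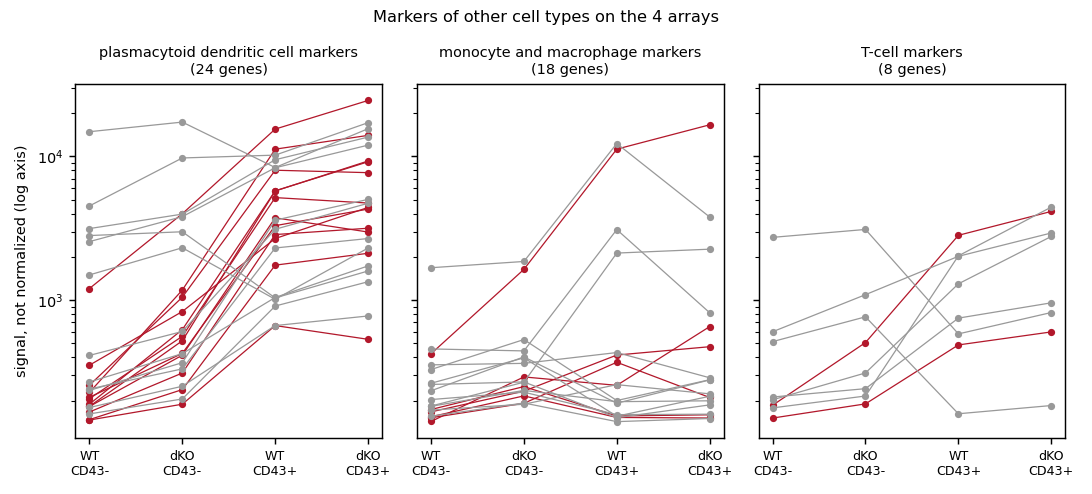
Signals (log axis, not normalized) of the measured markers of plasmacytoid dendritic cells (24), monocytes and macrophages (18) and T cells (8) on the 4 arrays, with 1 line per gene and red where the gene was higher by 2-fold or more in dKO CD43- cells after normalization. Siglech, P2ry14 and Cox6a2 are among the red plasmacytoid markers that are far brighter on both CD43+ arrays than on either CD43- array.

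Markers of other cell types were less uniform. Monocyte and macrophage markers were above 0 for 14 of 18 and higher by 2-fold or more for 6 (median 0.76, 0.60 with bounds), with Ly6c1 at 1.97 (423.6 in WT and 1638 in dKO) and Mrc1, the mannose receptor, at 1.04. Fcgr3, an Fc receptor for IgG, was at least 3.18-fold higher. It was also higher in CD43+ cells (1.65) and lies on chromosome 1, as Btg2 does. Of the 5 defining macrophage markers, Csf1r was at 0.10, Adgre1 at 0.59, C1qb at -0.23 and C1qc at 0.05, and C1qa was not detected. T-cell markers were above 0 for 7 of 8 with Cd8b1 at 2.27 (185.7 and 507.2), but Cd3d, Cd3e and Cd3g, the chains that define T cells, were detected on neither array. In CD43+ cells Cd8b1 gave 2826 in WT and 4144 in dKO (0.15), so like the plasmacytoid markers it was far brighter there. Which cells its signal came from was not tested. NK-cell markers were above 0 for 3 of 9: Klrd1 was 3.78-fold higher (231.0 and 647.7) and Klra4 at least 2.17-fold lower. Conventional dendritic cell markers were not shifted by the rule, with 5 of 8 above 0, and their median was 0.38 over all 8 and -0.05 over the 5 detected on both arrays. Of these, Sirpa, a receptor also found on myeloid cells, gave 225.6 and 564.5 (3.38-fold higher). Stromal and endothelial markers were above 0 for 4 of 5, and Alpl (2.45-fold) and Adipoq (2.20-fold) were higher by 2-fold or more, while the other 22 on the array were not detected. Neutrophil markers were above 0 for 4 of 18 with none at 2-fold (median -0.33), from Pglyrp1 at 0.50 to Mpo at -0.84. In CD43+ cells the neutrophil list had a median of -1.98, with 14 of 22 lower by 2-fold or more. Erythroid markers were near 0 (median 0.08, 10 of 17 above 0).

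Summed over the listed markers on the array, the raw signal of plasmacytoid markers was 35064 in WT and 53428 in dKO CD43- cells. That of monocyte and macrophage markers was 7706 and 10329, and that of erythroid markers 38837 and 42138. These sums are not normalized and include background, and the mean signal of all probes also differed, with 555.2 on the WT and 648.1 on the dKO array. The part of these cell types in the shift of the cell division genes was not tested.

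Genes of B-cell identity stayed mostly within 2-fold. Of 37 transcription factors of the lineage none reached 2-fold (median 0.13, 24 above 0). Ebf1, the factor that establishes the B-cell program, gave 883.5 in WT and 1264 in dKO, a log2 difference of 0.24 (bead SE 0.15), and Pax5, which maintains B-cell identity, gave 209.8 and 211.8 (-0.31, bead SE 0.21). Runx1 lay just under the threshold at 0.99 (276.3 and 515.7), and Id2, an inhibitor of E proteins, was at -0.96 (216.7 and 186.5). Genes of the pre-B-cell and B-cell receptors were split evenly, with 16 of 33 above 0, 0 higher by 2-fold or more and a median of -0.00. The surrogate light chain gene Vpreb1, normally on in large pre-B cells, was at 0.91 (2217 and 5053), and the kinase gene Syk was at -0.56.

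Genes of pro-B and pre-B cells had a median of 0.21 with 13 of 19 above 0. Arpp21 was 2.57-fold higher (183.9 and 317.0), although it stood at -0.36 in the RMA table, and Cnp was 2.08-fold lower (7537 and 4638; -0.56 on its other probe). Mature B-cell genes were above 0 for 9 of 32 (median -0.17), and 1 passed 2-fold in each direction: Gpr183, a receptor that guides B cells in follicles, gave 687.5 and 1855 (2.39-fold higher), and Tnfrsf13b, encoding the receptor TACI, gave 449.5 and 311.6 (2.18-fold lower). Genes of MHC class II presentation were above 0 for 4 of 17 with none at 2-fold (median -0.11). GIMAP genes, GTPases of lymphocyte survival, were below 0 for 6 of 6, from -0.03 to -0.64, and none reached 2-fold. Their median was -0.33 and stood at -0.05 in CD43+ cells.

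Immediate-early genes, which cells switch on within minutes of a stimulus, were lower. Of 24 measured members 20 were below 0, 3 were lower by 2-fold or more against 2.57% of all genes and 0 higher by 2-fold or more, with a median of -0.46. Fosb gave 732.3 in WT and 394.9 in dKO (2.83-fold lower), Fos 4027 and 2205 (2.39-fold lower), both subunits of AP-1, and the stress gene Gadd45b 516.8 and 343.0 (2.27-fold lower). In CD43+ cells the list had a median of -0.27, with 2 of 26 members lower by 2-fold or more. Targets of p53 were within 2-fold for 17 of 17, with a median of -0.22, from Ddb2 at -0.88 to Cdkn1a at 0.80.

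In cytokine signalling, 22 of 30 genes of the IL-7 receptor, JAK-STAT and SOCS list were above 0 (median 0.26). Socs3, a feedback inhibitor, gave 181.9 and 277.9 (2.11-fold higher), and Stat3 gave 642.1 and 1497 (2.05-fold higher, but 0.52 and 0.04 on its other probes). The Notch and Wnt list was above 0 for 17 of 19 (median 0.49, 0.23 with bounds), with Ccnd1, described above, and Apc, detected in dKO only and at least 1.92-fold higher, as the members past 2-fold, and Dvl1 2.12-fold lower (444.7 and 314.2; -0.04 in the RMA table). Interferon-stimulated genes had a median of 0.19 over 35 members, and Ifit2 was the 1 member higher by 2-fold or more (221.3 and 403.4, 2.22-fold).

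Housekeeping pathways had medians near 0. Subunits of oxidative phosphorylation had a median of 0.04 over 66 genes, all between -0.59 and 0.52. Mitochondrial ribosomal proteins had a median of 0.00 over 67 genes, ribosome biogenesis genes 0.01 over 42, proteasome genes 0.08 over 42 and glycolysis genes -0.02 over 22, each with 0 members at 2-fold. Cytosolic ribosomal proteins had 11 of 54 above 0 and a median of -0.10. Rpl22 was the 1 member lower by 2-fold or more (-1.01). Their median was -0.34 relative to all genes when arrays were scaled on the median of all probes. Among 44 translation factors the median was -0.03, and Eif4b, which helps the helicase that opens mRNA leaders, was 3.54-fold lower (440.3 and 236.8). The log2 difference of Eif4b in CD43+ cells was -1.87. Of 47 spliceosome genes 22 were above 0; Srsf5 was 2.17-fold lower (5080 and 3075; -1.28 on its other probe) and Hnrnpu 2.09-fold higher (174.3 and 254.5).

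Among chromatin and nuclear envelope genes, a few members stood out of lists that were not shifted. Lmnb1, encoding lamin B1 of the nuclear lamina, gave 2047 in WT and 9546 in dKO (3.92-fold higher), and Rcc1, the exchange factor that loads Ran on chromatin, gave 312.0 and 627.4 (2.08-fold higher). Gatad2b, a subunit of the NuRD remodelling complex, gave 206.5 and 402.7 (2.62-fold higher). Cbx2, a Polycomb reader, gave 174.4 and 267.2 (2.30-fold higher). In CD43+ cells the log2 differences were 1.52 for Lmnb1, -0.34 for Rcc1, 2.13 at its bound for Gatad2b and 0.34 for Cbx2. Of the metabolic lists, Hsd17b7, an enzyme of cholesterol synthesis, was 2.40-fold higher (546.5 and 1429). Their lists had medians from 0.10 to 0.22.

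The largest differences of single genes lay partly outside the lists. Ctse, encoding the aspartic protease cathepsin E, gave 463.4 in WT and 9287 in dKO (21-fold higher), and Dctn1, a dynactin subunit, was at least 8.63-fold higher (146.7 and 587.0). In the other direction Cd48, a ligand of the SLAM family, was at least 4.80-fold lower (334.3 and 144.1) and Fcer1g, the shared signalling chain of Fc receptors, at least 4.07-fold lower (302.1 and 140.5). Pde1b, a cyclic nucleotide phosphodiesterase, gave 1025 and 408.9 (3.98-fold lower). These genes went the same way in CD43+ cells, with log2 differences of 4.78 for Ctse and -1.81 for Pde1b. Dctn1, Cd48 and Fcer1g were detected on 1 CD43+ array each and stood at 3.26, -2.46 and -7.71 at their bounds. Their differences were therefore not particular to CD43- cells.

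Ctse, Cd48 and Fcer1g lie on chromosome 1, as Btg2 does. Of the 100 nearest measured genes on each side of Btg2, 12 were higher by 2-fold or more and 10 lower, 11% in all, against 8.91% of the rest of the chromosome and 6.18% of all genes; among the 50 nearest on each side the share was 6%. Around Btg1 on chromosome 10 the shares were 4% of the 50 nearest and 3.67% of the 100 nearest, against 2.75% of the rest. Whether probes near the targeted genes bind dKO and WT transcripts equally was not tested.

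**Figure D4:**
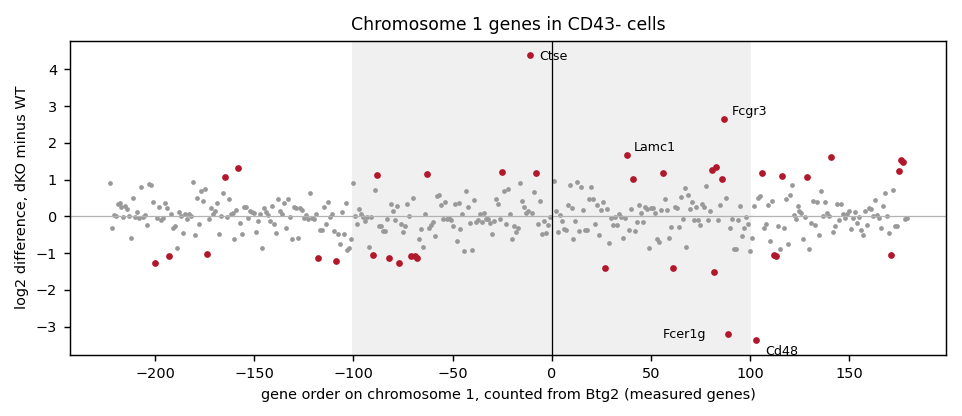
Log2 differences (dKO minus WT, CD43- cells) of 402 measured genes of chromosome 1, in gene order counted from Btg2 at 0, with the 100 nearest on each side shaded and genes past 2-fold in red. Ctse (4.39) is the highest point, and Cd48 (-3.37) and Fcer1g (-3.20), both detected in WT only, are the lowest.

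The difference between genotypes was set against that in CD43+ cells, where 148 of 8631 genes (1.71%) were higher by 2-fold or more and 172 (1.99%) lower. Of 7613 genes measured in both fractions, 38 were higher by 2-fold or more in both and 50 lower in both, and 2 passed in opposite directions. The shared 38 are 13.2% of the higher genes of CD43- cells and 25.7% of those of CD43+ cells. The shared 50 are 24.5% of the lower genes of CD43- cells and 29.1% of those of CD43+ cells. The differences of 305 genes between the fractions were themselves at least 2-fold apart, with no test. Among lists picked for a large shift in CD43- cells, histones had a median of 1.48 in CD43- cells and 0.40 in CD43+ cells. Plasmacytoid markers had 1.02 and 0.20, and DNA replication 0.59 and 0.01. Because size in CD43- cells picked these lists, smaller values in CD43+ cells do not show that a shift is particular to 1 fraction. Neutrophil markers went the other way, with -0.33 in CD43- and -1.98 in CD43+ cells.

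**Figure D5:**
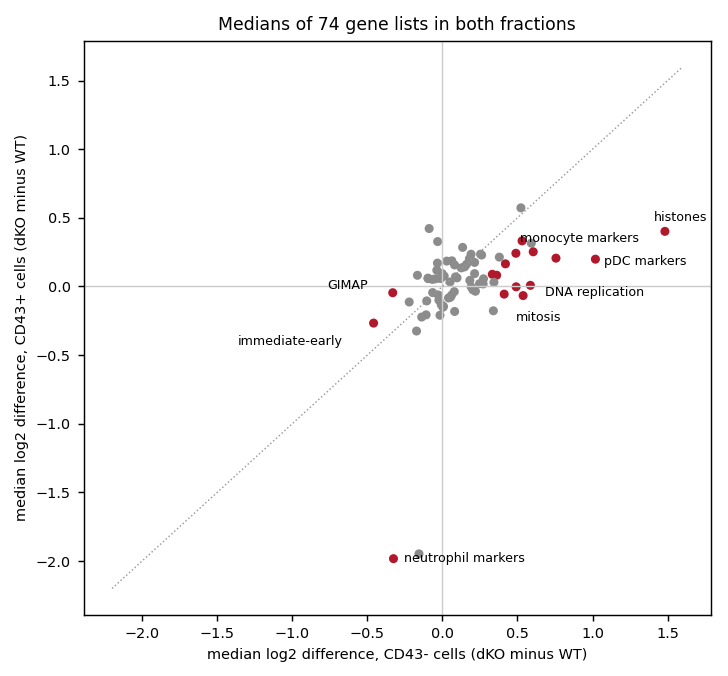
Median log2 differences (dKO minus WT) of 74 gene lists with at least 5 measured members, in CD43- cells (horizontal) and CD43+ cells (vertical), with the 16 lists called shifted in CD43- cells in red and equality as the dotted line. DNA replication and mitosis lie right of 0 and near 0 on the vertical axis, and neutrophil markers lie at -1.98 in CD43+ cells.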

How the data were processed

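RNA of 4 sorted cell samples was labelled and hybridized to 4 Illumina MouseRef-8 arrays, 1 per group. Per the file headers, the deposited signal table is a GenomeStudio 1.9.0 export without normalization, holding a mean bead intensity per probe, the SD of the bead intensities, a bead count and a detection score, given as a fraction. The authors also deposited log2 values made with RMA, per the submitters' processing notes, and a linear ratio per gene, which was not used. Settings of RMA are not stated in the labels. The depth of an array is its number of beads (a median of 38 on the WT and 39 on the dKO CD43- array), and the number of arrays limits the precision.

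Signals were background corrected with normexp (limma infers the negative controls from the detection scores), given an offset of 16, quantile normalized over the 4 arrays and log2 transformed in limma 3.58.1 (R 4.3.3); the offset shrinks differences of dim genes. These steps were checked on simulated data, drawn from the WT CD43- array with added noise. The simulation held no spread among mice or RNA samples, so it gives no error rate for the 2-fold counts. Dim genes lose precision first: within 0.005 of the detection limit of 0.99, 408 probes lay above it (median signal 174.2) and 157 below it (median signal 178.5). Within 0.1 (log2) of 2-fold, 74 higher genes lay past it and 65 short of it, and 62 and 75 lower genes. A gene is represented by its brightest probe. A gene detected on 1 array has a bound ("at least N-fold"): the other array counts at the gene's own value or at its dimmest detected probe, whichever is higher. Folds come from normalized values, so they differ from ratios of the printed signals.

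Of 18138 gene identifiers, 14300 matched a symbol and 2884 a synonym in a RefSeq table (GRCm38.p6), which served for names, gene order and promoters; 954 kept the file's name. The members and the 75 gene lists were chosen with earlier results of these data known. The genes named are Btg1, Btg2, Ebf1 and Pax5, genes from the 15 largest per direction that kept their sign under RMA (predicted clones skipped), members of described lists that were past 2-fold or had one of the 4 largest differences, and paralogs of these. The bright histones, genes whose probes disagreed, members short of 2-fold outside that rule and Xist and Kdm5d were chosen after their values were seen. Alternatives are given in the closing section. The result for 1 item is not reported here.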

Additional observations from a re-analysis of the deposited data

Results flagged for a closer look

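Among the 16 gene lists called shifted, the medians of 3 pointed one way in CD43- cells and the other way in CD43+ cells. Mitosis and cytokinesis genes had a median log2 difference (dKO minus WT) of 0.5375 in CD43- cells and -0.07 in CD43+ cells. Centromere and kinetochore genes had medians of 0.4113 and -0.06, and homologous recombination and Fanconi genes 0.491 and -0.00. The CD43+ medians lie close to 0. Each fraction has 1 array per genotype, so these differences between fractions were not tested.

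Cd209d and Fcgr4 passed 2-fold in opposite directions. Cd209d, a lectin receptor gene, had signals of 160.6 in WT and 316.8 in dKO CD43- cells (log2 difference 2.165, at least 3.63-fold higher) and of 1741 and 1030 in CD43+ cells (-1.30). Fcgr4, an Fc receptor gene, had signals of 152.0 and 191.7 in CD43- cells (1.021, at least 1.25-fold higher) and of 369.8 and 210.4 in CD43+ cells (-1.96). Both were detected in dKO only among the CD43- arrays, and the differences between fractions were not tested.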

How the results depend on the processing

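No paired analysis was possible because each group has 1 array. Against 287 genes at least 2-fold higher and 204 lower, there were 50 and 34 with background left in, 114 and 59 with an offset of 50, 472 and 93 with scaling on the median of all probes (chosen after seeing the data), 158 and 90 for genes detected on both arrays, 184 and 99 with bounds, and 387 and 328 in the RMA table. Against 370 probes higher and 308 lower they were 54 and 45, 133 and 94, 599 and 150, and 181 and 149 under the first 4 of these settings. The 16 shifted lists became 10 without background correction, 7 without a filter on dim probes and 37 with scaling on all probes, where the median of all genes also moved, to 0.25. The 305 genes that differed between fractions became 54 without background correction, 128 with an offset of 50 and 574 in the RMA table. The cause of these moves was not tested. The median of the stromal list turned to -0.037 without the filter. DNA replication, histones, mitosis, cohesin and condensin, centromere and plasmacytoid lists were called under all 10 alternatives. With the all-probe scaling taken relative to its shift, their medians ran from 0.51 to 0.62, 1.23 to 1.49, 0.45 to 0.55, 0.36 to 0.46, 0.33 to 0.43 and 0.54 to 1.02. The cyclin and CDK list and the list of CDK inhibitors and RB-E2F genes were called under 6 of the 10. Homologous recombination and the Notch and Wnt list were called under 7, and immediate-early genes, T-cell markers and monocyte markers under 8. The GIMAP and stromal lists were called under 9 and neutrophil markers under 2.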

Other observations

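Over 2044 genes with at least 2 detected probes, the differences of a gene's probes had a median spread of 0.28 on the log2 scale. In 694 of these genes the probes had opposite signs. In 7 of these genes the probes differed by at least 2 on that scale, and the 3 described here were chosen after their values were seen. Mcm6, a subunit of the replicative helicase on chromosome 1, had the widest spread. One of its probes gave 2489 in WT and 221.7 in dKO CD43- cells (-4.89) and 3936 and 254.7 in CD43+ cells (-5.32). Its brightest probe gave 2142 and 4225 in CD43- cells (0.69), and a further probe gave 1148 and 2222 (0.70). Usf1, a transcription factor gene on the same chromosome, was lower on a probe detected in WT only (300.4 and 161.6) and stood at -0.20 on its other probe. Both are among the 100 nearest measured genes on a side of Btg2, where 50 genes had at least 2 detected probes. Mdm1 on chromosome 10, among the 100 nearest of Btg1, had probes at 2.33 (detected in dKO only), 1.28 and -0.33 (detected in WT only, with signals of 168.5 and 168.8). The cause was not tested.

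Prg3, a granule protein gene of eosinophils, gave 718.2 in WT and 2143 in dKO CD43- cells (2.65-fold higher), and 171.1 and 244.2 in CD43+ cells. Epx, the eosinophil peroxidase gene, was not detected on either CD43- array. Over the eosinophil, basophil and mast-cell list 2 of 6 measured genes were above 0. Of the SLAM family 4 of 7 were above 0. Slamf6 gave 202.1 and 350.0 (2.27-fold higher), Slamf9 2644 and 1665 (2.08-fold lower), and Cd48 is described above. Slamf6 and Slamf9 went the same way in CD43+ cells, with log2 differences of 1.64 and -1.27. Both lie on chromosome 1, as Cd48 and Btg2 do. Of the stem and early progenitor genes 7 of 12 were above 0 (median 0.25), with members past 2-fold in both directions. Cd34 was detected in dKO only (132.0 and 190.4, at least 1.23-fold higher), Meis1 gave 221.8 and 181.5 (2.23-fold lower), and the third such member was Cd48.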
